A study of Rattus norvegicus with 9 samples.

Results

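The liver genes described here encode albumin and 9 further proteins that the liver secretes into plasma, most of them carriers: Alb, Afp, Afm, Gc, Ttr, Rbp4, Tf, Ahsg, Serpina6 and Serpina1. They were chosen by name from the 32883 rat genes of the deposited tables. Of the 10, 9 were listed under these symbols, and Ahsg was found by its Entrez gene ID, since its row carries a clone name as symbol. All 10 passed the filter on low counts, which left 14089 genes for testing. The rats were male Sprague-Dawley animals, with 8 to 11 weeks given as their age when obtained and no age given for collection. The levels were measured by bulk RNA-seq in 9 livers, 3 from normal rats, 3 from the empty group and 3 from the UTOpiA group. The rats of the latter groups all had acute-on-chronic liver failure (ACLF), caused by bile duct ligation for 21 days and then lipopolysaccharide (LPS) at 0.25 mg/kg into the peritoneum. From 1 h after LPS their blood ran for 2 h through an outside circuit, and livers of surviving rats, picked at random, were collected 24 h after LPS. The circuit of the empty group held neither cells nor adsorbing beads, whereas that of the UTOpiA group joined a column of cellulose acetate beads, which takes up granulocytes and monocytes, with alginate-encapsulated organoids of hepatocyte-like cells made from gene-edited human induced pluripotent stem cells. The tables list rat genes only, so the products of the human cells in the device were not measured. The labels do not say whether the rats of a group shared a day of surgery or a litter.

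Hepatocytes make nearly all plasma proteins other than antibodies and release them into blood. Only mRNA was measured here, so how much of each protein was made is not known. Albumin holds the colloid pressure of plasma and carries fatty acids, bilirubin and many drugs, and a low plasma albumin is a hallmark of liver failure. During inflammation, hepatocytes lower the mRNAs of albumin, transthyretin and other so-called negative acute phase proteins and raise those of positive ones.

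Total counts per liver ranged from 14241172 to 15205300 in normal rats, from 15775439 to 17321677 in empty livers and from 14494047 to 16146265 in UTOpiA livers. Every member had at least 97 counts in every liver, the lowest value being that of Serpina6 in UTOpiA liver 2. Levels are given as TPM, the length-scaled unit in which all genes of a liver add up to 1000000. Fold changes come from edgeR's quasi-likelihood test on the counts of all 14089 genes, normalised by TMM, with Benjamini-Hochberg adjusted p. A gene was called changed at an adjusted p under 0.05 with a fold above 2. The 2 comparisons with normal livers share the 3 normal livers. With bulk tissue, fewer hepatocytes and less RNA per hepatocyte cannot be told apart. Empty liver 2 stood apart from the other 2 empty livers in many of the genes below, and values without it are given for some of them.

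In normal livers, the 10 genes together took 18.6%, 17.9% and 19.8% of all TPM. This share was 5.09%, 8.96% and 4.87% in empty livers and 8.77%, 5.75% and 7.96% in UTOpiA livers. Every ACLF liver was thus below every normal liver, and the ranges of the ACLF groups overlapped. The means were 18.8% ± 0.943 in normal livers, 6.31% ± 2.30 in empty livers and 7.50% ± 1.56 in UTOpiA livers (SD, n = 3 each). No test was made on this sum, because its members were chosen. Alb alone accounted for 9.91 of the 12.5 percentage points between the normal and the empty mean, and Ttr for 1.45 points. The other 9 genes together took 6.87% ± 0.449 of all TPM in normal livers, 4.30% ± 1.13 in empty livers and 5.17% ± 0.672 in UTOpiA livers.

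**Figure D1:**
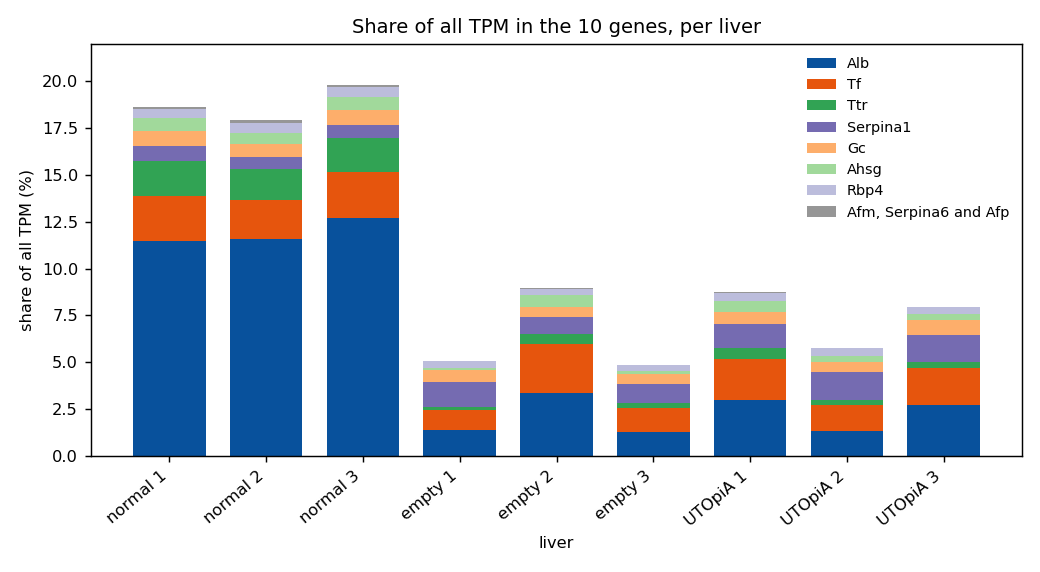
Stacked bars give the share of all TPM (vertical axis, %) taken by each of the 10 genes in each of the 9 livers (horizontal axis), with the 3 least abundant genes joined in 1 segment. The Alb segment runs from 11.5% to 12.7% in normal livers and from 1.28% to 3.36% in those with ACLF, while the Serpina1 segment is not smaller in any ACLF liver than in the normal livers.

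The make-up of this pool also differed between normal and ACLF livers. Alb made up 61.5% to 64.6% of the TPM of the 10 genes in normal livers, 26.4% to 37.5% in empty livers and 22.6% to 34.1% in UTOpiA livers. The share of Tf within the pool was 11.6% to 12.8% in normal livers and 21.2% to 28.9% in empty livers, and it lay between 24.7% and 24.9% in all 3 UTOpiA livers. Serpina1 took 3.66% to 4.30% of the pool in normal livers, 10.1% to 26.1% in empty livers and 15.1% to 25.2% in UTOpiA livers. Among all genes ranked by TPM, Alb was first in each normal liver, and it was at places 11, 2 and 11 in empty livers and 2, 12 and 6 in UTOpiA livers.

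The albumin family was described first. Alb, Afp and Afm lie next to each other on the minus strand of chromosome 14, at chr14:19176277-19191863, chr14:19141755-19159923 and chr14:19078680-19132208 in the deposited tables (build rn6 in the processing notes), and Gc lies further along the chromosome on the plus strand at chr14:20266891-20302581. Alb reached 114722, 115784 and 127172 TPM in normal livers, 13854, 33608 and 12840 TPM in empty livers, and 29936, 13022 and 26860 TPM in UTOpiA livers. All ACLF livers were far below the normal livers, and empty liver 2 was the highest of them. In the empty group Alb fell 8.45-fold against normal, a log2 fold change of -3.08 (SE 0.58, edgeR adjusted p = 0.0023). In the UTOpiA group it fell 6.08-fold against normal, -2.61 on the log2 scale (SE 0.57, edgeR adjusted p = 0.0063).

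Afm encodes afamin, a plasma binder of vitamin E. Its levels were 635, 595 and 663 TPM in normal livers, 80.2, 321 and 127 TPM in empty livers, and 415, 160 and 320 TPM in UTOpiA livers. All 6 ACLF livers were below the normal livers, with UTOpiA liver 1 at the top and empty liver 1 at the bottom. The log2 fold change of Afm against normal was -2.36 in empty livers (SE 0.56, edgeR adjusted p = 0.0079). It was -1.34 in UTOpiA livers (SE 0.55, edgeR adjusted p = 0.0797), which did not pass the test in edgeR, whereas DESeq2 called it lower (-1.35, adjusted p = 0.0232).

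Gc is the vitamin D binding protein, which also clears actin released from dying cells. Its TPM was 8448, 7136 and 8000 in normal livers, 6001, 5541 and 5167 in empty livers, and 6242, 5510 and 7777 in UTOpiA livers. The empty livers were all below the normal livers by a narrow margin, and UTOpiA liver 3 lay within the normal range. The difference between empty and normal livers, -1.01 on the log2 scale (SE 0.33, edgeR adjusted p = 0.0307), stood just past the 2-fold threshold and became -0.47 (adjusted p = 0.105) with library totals in place of TMM, and that between UTOpiA and normal livers was -0.53 (adjusted p = 0.224).

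Afp, the fetal counterpart of albumin, is shut down in the liver after birth and can return in regenerating liver and in liver tumours. It had the lowest TPM of the 10 genes in every liver, with 102 to 285 counts per liver. Its TPM was 12.8, 16.8 and 10.3 in normal livers, 8.77, 8.24 and 8.71 in empty livers, and 11.7, 5.56 and 9.87 in UTOpiA livers. Thus no ACLF liver rose above the normal range, and UTOpiA livers 1 and 2 were the highest and the lowest of the ACLF livers. Against normal livers its log2 fold change was -1.15 in empty livers (SE 0.33, edgeR adjusted p = 0.0176) and -0.82 in UTOpiA livers (SE 0.33, adjusted p = 0.0744). With library totals in place of TMM, the first value was -0.60 (adjusted p = 0.105), so the call of Afp is lost when the scaling for library composition is left out, though it held with DESeq2 (-1.14, adjusted p = 0.0050).

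Transthyretin and the retinol binding protein travel in plasma as one complex that carries thyroxine and vitamin A, and their mRNAs are described together. Ttr (chr18:15532963-15540177) was at 18667, 16595 and 17936 TPM in normal livers, 1656, 5578 and 2365 TPM in empty livers, and 5731, 2752 and 3619 TPM in UTOpiA livers. Every ACLF liver stood well below the normal livers. Ttr fell 7.94-fold in empty livers, -2.99 on the log2 scale (SE 0.52, edgeR adjusted p = 0.0015), and 5.37-fold in UTOpiA livers, -2.42 on the log2 scale (SE 0.50, edgeR adjusted p = 0.0051).

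Rbp4 (chr1:256806472-256813711) was at 5028, 5504 and 5070 TPM in normal livers, 3778, 3416 and 3294 TPM in empty livers, and 4481, 3876 and 3359 TPM in UTOpiA livers. It was lower in all 6 ACLF livers than in the normal livers, and the spread within each group was small. Its log2 fold change was -1.09 in empty livers (SE 0.24, edgeR adjusted p = 0.0055) and -0.73 in UTOpiA livers (SE 0.24, edgeR adjusted p = 0.0391), the latter under the 2-fold threshold. With library totals the first value was -0.54 and also under that threshold. The TPM of Ttr over that of Rbp4 was 3.71, 3.02 and 3.54 in normal livers, 0.438, 1.63 and 0.718 in empty livers, and 1.28, 0.710 and 1.08 in UTOpiA livers. The normal ratios were all above those of the ACLF livers. In a two-sided exact permutation test of the log2 ratio, p = 0.1 for either ACLF group against normal, the smallest value that 3 livers against 3 allow, and 0.7 between the ACLF groups.

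Tf encodes transferrin, the iron carrier of plasma. Its TPM was 23857, 20722 and 24557 in normal livers, 10773, 25871 and 12745 in empty livers, and 21720, 14231 and 19865 in UTOpiA livers. Empty liver 2 was above every normal liver while the other empty livers were the lowest of all, so the groups overlapped. The log2 fold change against normal was -1.003 in empty livers (SE 0.45, edgeR adjusted p = 0.0896) and -0.58 in UTOpiA livers (adjusted p = 0.322), and neither passed the test. Without empty liver 2 the first value was -1.51 and passed it (edgeR adjusted p = 0.016). The row of Tf (chr8:111673547-111721333) carries the description of the neighbouring Srprb gene, a subunit of the signal recognition particle receptor that has no row of its own, so the value of Tf may include reads of that gene.

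Ahsg (chr11:81707804-81735592) encodes fetuin A, which keeps calcium phosphate in solution. It was at 6490, 5746 and 6818 TPM in normal livers, 1415, 6058 and 1809 TPM in empty livers, and 5868, 3449 and 3515 TPM in UTOpiA livers. Empty liver 2 and UTOpiA liver 1 were within the normal range, and the other ACLF livers were below it. The log2 fold change was -1.55 in empty livers (SE 0.54, edgeR adjusted p = 0.0393) and became -2.52 without empty liver 2 and -1.02 (adjusted p = 0.101) with library totals, whereas it was -0.88 in UTOpiA livers (adjusted p = 0.220).

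The remaining members are serpins, a family of protease inhibitors some of which carry hormones instead, and they lie close together on the minus strand of chromosome 6. Serpina6 (chr6:127523906-127534247) encodes the corticosteroid binding globulin, which carries glucocorticoids. Its TPM was 534, 641 and 486 in normal livers, 16.0, 138 and 17.5 in empty livers, and 104, 6.69 and 17.6 in UTOpiA livers. All ACLF livers were below the normal livers, but within either ACLF group the highest liver exceeded the lowest by 8.67-fold and 15.5-fold. The log2 fold change of Serpina6 was the lowest of the 10 genes, -3.78 in empty livers (SE 1.18, edgeR adjusted p = 0.0271) and -4.01 in UTOpiA livers (SE 1.19, edgeR adjusted p = 0.0273), and it had the largest SE of the 10. Without empty liver 2 the first value was -5.58. The second ran from -5.67 to -3.48 over other settings and with single livers left out. The call in empty livers was lost in edgeR without normal liver 2, without empty liver 1, without empty liver 3 and with no filter on counts, where its adjusted p was at most 0.0781. By rank among all genes, Serpina6 went from places 169 to 232 in normal livers to places 884 to 5543 in empty livers and 1084 to 9302 in UTOpiA livers.

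Serpina1 (chr6:127610243-127632265) encodes alpha-1 antitrypsin, which blocks the elastase of neutrophils. It was the 1 member with a higher TPM in ACLF, at 8016, 6563 and 7276 TPM in normal livers, 13291, 9071 and 10325 TPM in empty livers, and 13233, 14511 and 14282 TPM in UTOpiA livers. Each ACLF liver was above each normal liver on this scale, as were 53.4% of all genes tested for the empty group and 39.0% for the UTOpiA group. After TMM scaling, which takes out that common shift, its log2 fold change was 0.07 in empty livers (SE 0.31, edgeR adjusted p = 0.870) and 0.65 in UTOpiA livers (SE 0.31, adjusted p = 0.128). With library totals alone these values were 0.61 (edgeR adjusted p = 0.047) and 0.99 (adjusted p = 0.008), while the median of all genes was at 0.60 and 0.42 on that scale.

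**Figure D2:**
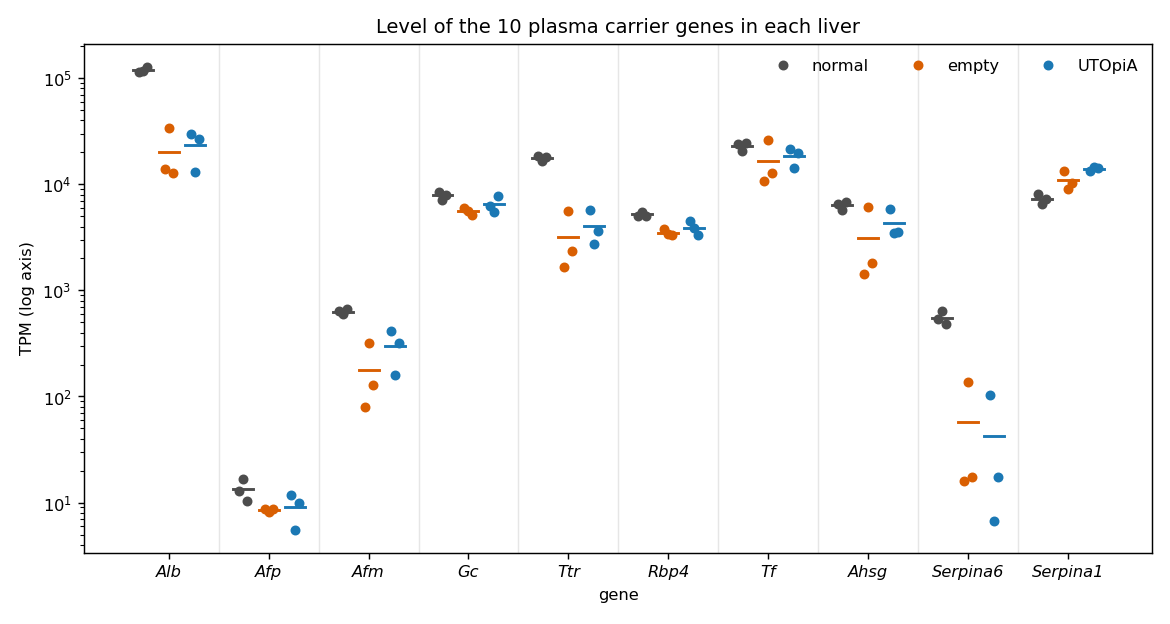
Points give the TPM (vertical axis, log scale) of each of the 10 genes in the 3 livers of each group, with the horizontal mark at the group mean. For Alb, Afm, Ttr, Rbp4 and Serpina6 all ACLF livers lie below the normal livers, and for Serpina1 all lie above them.

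Taking the members together for the empty group, 8 of 10 were called lower than normal, against 11.1% of all genes tested, and 0 of 10 were called higher, against 20.7%. The median log2 fold change of the 10 was -1.35, beside 0.04 for all genes. Among all genes tested, 2916 were called higher and 1560 lower, which became 4477 and 682 with library totals in place of TMM. On TPM, 7 of 10 had every empty liver below every normal liver (12.8% of all genes) and 1, Serpina1, had every empty liver above (53.4%). Alb, Afm and Ttr were called lower with each of the 9 livers left out in turn. The count of 8 became 3 without empty liver 3 (Alb, Afm and Ttr), 4 without normal liver 2 (Rbp4 in addition) and 5 without empty liver 1 (Rbp4 and Afp in addition). In these fits 1336, 1431 and 1523 of all genes were called lower, against 1560 with all livers. Without empty liver 2 the count was again 8 (1776 of all genes), with Tf called and Gc not. Alb, Afm and Ttr were then at -3.69, -3.16 and -3.69 on the log2 scale. Ahsg lost its call without any 1 of the normal livers, without empty liver 1 or 3 and without UTOpiA liver 3, and Gc lost it without any 1 of the normal or empty livers.

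In the UTOpiA group, 3 of 10 members were called lower than normal, Alb, Ttr and Serpina6, against 6.81% of all genes tested, and 0 of 10 higher, against 18.2%. The median of the 10 was -0.85 on the log2 scale, beside 0.05 for all genes. On TPM, 5 members had every UTOpiA liver below every normal liver (13.4% of all genes) and 1 had every liver above (39.0%). Serpina6 lost its call without UTOpiA liver 2, without UTOpiA liver 3 and without any 1 of the normal livers, which left 2 of 10, and Afm gained one without empty liver 2. In these fits 725 to 1104 of all genes were called lower, against 959 with all livers. DESeq2 with all livers called 4 of 10 lower, Afm in addition (6.89% of all genes).

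The comparison of the UTOpiA with the empty group asks whether the treatment moved these genes within ACLF. None of the 10 was called in either direction, as was the case for 0.0% of all genes tested with edgeR (51 higher, 0.352% of all genes, and 74 lower, 0.511%, with DESeq2), and 0 of 10 had an unadjusted p under 0.05, against 10.3% of all genes. The log2 fold changes were above 0 for 9 of 10, with a median of 0.47 beside 0.00 for all genes. They were 1.02 for Afm (SE 0.54), 0.67 for Ahsg (SE 0.53), 0.58 for Serpina1 (SE 0.31), 0.56 for Ttr (SE 0.48), 0.48 for Gc (SE 0.33), 0.47 for Alb (SE 0.54), 0.42 for Tf (SE 0.44), 0.36 for Rbp4 (SE 0.24), 0.33 for Afp (SE 0.33) and -0.23 for Serpina6 (SE 1.06). The edgeR adjusted p values lay between 0.550 and 0.961, and for 0 of 10 did the groups stay apart on TPM, against 8.62% of all genes with every UTOpiA liver below and 2.43% with every UTOpiA liver above the empty livers. DESeq2 likewise called 0 of 10 with all livers. Without empty liver 2, the edgeR log2 fold change was 1.08 for Alb (adjusted p = 0.367), 0.93 for Tf (0.329), 1.82 for Afm (0.108), 1.64 for Ahsg (0.083), 1.27 for Ttr (0.178) and 1.57 for Serpina6 (0.507), and edgeR called none. DESeq2 without that liver called Afm, Ahsg and Ttr higher in UTOpiA livers, at 1.79, 1.61 and 1.23 on the log2 scale, where it called 2.42% of all genes higher. It had Tf at 0.90 (adjusted p = 0.040), under the 2-fold threshold, and Alb at 1.05 (adjusted p = 0.103).

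**Figure D3:**
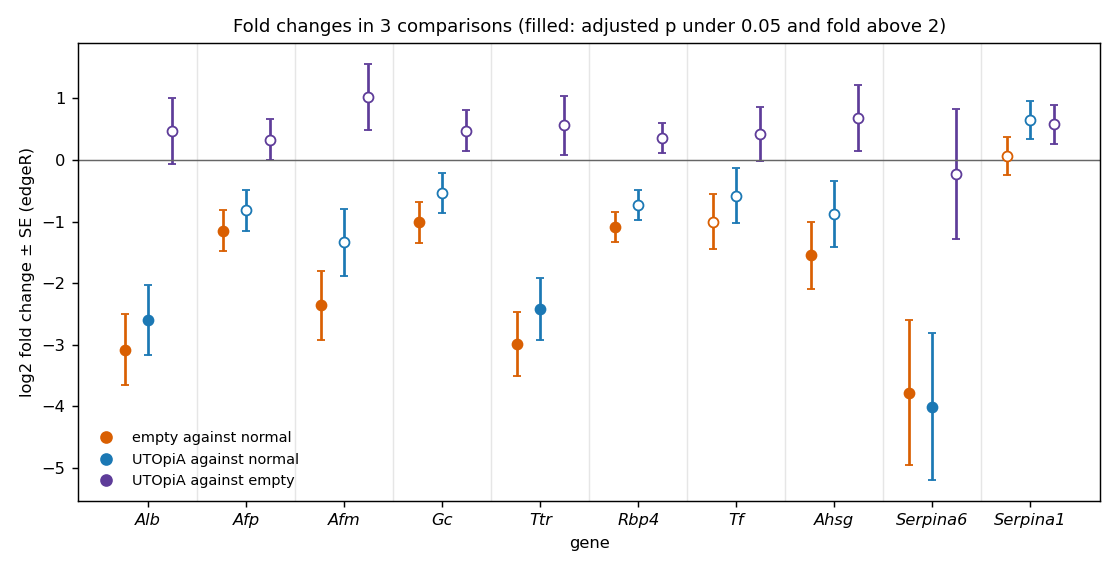
Points give the edgeR log2 fold change of each gene in the 3 comparisons (vertical axis) with bars of 1 SE, filled where the adjusted p was under 0.05 and the fold above 2. In empty against normal 8 points are filled, in UTOpiA against normal 3, and in UTOpiA against empty 0, with 9 of the latter above the zero line.

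Ratios of TPM within one liver do not depend on how libraries are scaled to each other. The TPM of Alb over that of Tf was 4.81, 5.59 and 5.18 in normal livers, 1.29, 1.30 and 1.01 in empty livers, and 1.38, 0.915 and 1.35 in UTOpiA livers. Empty liver 2 did not stand out in this ratio, although it was the highest ACLF liver for both genes. Alb over Gc was 13.6, 16.2 and 15.9 in normal livers, 2.31, 6.07 and 2.48 in empty livers, and 4.796, 2.36 and 3.45 in UTOpiA livers. Alb over Serpina1 ran from 14.3 to 17.6 in normal livers, from 1.04 to 3.70 in empty livers and from 0.897 to 2.26 in UTOpiA livers. Alb over Afp ran from 6874 to 12319 in normal livers, from 1474 to 4080 in empty livers and from 2344 to 2722 in UTOpiA livers. For these ratios too the ranges of normal and ACLF livers were apart, with p = 0.1 in the exact permutation test.

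Within the albumin family, Alb over Afm changed less. It was 181, 195 and 192 in normal livers, 173, 105 and 101 in empty livers, and 72.1, 81.2 and 84.0 in UTOpiA livers. The 3 groups did not overlap, and this was the 1 ratio of the 7 examined whose UTOpiA values were all on one side of the empty values. The log2 ratio fell by 0.63 from the normal to the empty group and fell by 0.63 from the empty to the UTOpiA group. The exact permutation p was 0.1 for each step and 0.7 for the second after adjustment over the 7 ratios.

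To see how the members moved beside other hepatocyte genes, each was divided by the summed TPM of 9 hepatocyte markers (Cps1, Ass1, Asgr1, Tat, Hpd, Pck1, G6pc1, Cyp2e1 and Apob). That sum was 8318 to 9557 TPM in normal livers, 5778, 9460 and 5683 TPM in empty livers, and 9796, 6735 and 6175 TPM in UTOpiA livers. Empty liver 2 and UTOpiA liver 1, the highest ACLF livers for most carriers, were thus also the highest in the marker sum. The markers were not stable themselves, with 3 of 9 called lower (11.1% of all genes) and 1, Pck1, called higher (20.7% of all genes) in empty livers against normal, so the ratio is a description and was not tested. Alb over the marker sum was 12.5, 12.1 and 15.3 in normal livers, 2.40, 3.55 and 2.26 in empty livers, and 3.06, 1.93 and 4.35 in UTOpiA livers. It was below the normal range in all 6 ACLF livers, as were the ratios of Afm, Ttr and Serpina6, and the ratio of Serpina1 was above it in all 6. By contrast, the ratios of Afp, Gc, Rbp4 and Tf were below the normal range in 3, 2, 3 and 2 ACLF livers, and the mean log2 difference between the empty and the normal group was -0.20, -0.085, -0.16 and -0.18 for these genes, beside -2.30 for Alb and -2.25 for Ttr. Ahsg was below the normal range in 5 of 6.

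**Figure D4:**
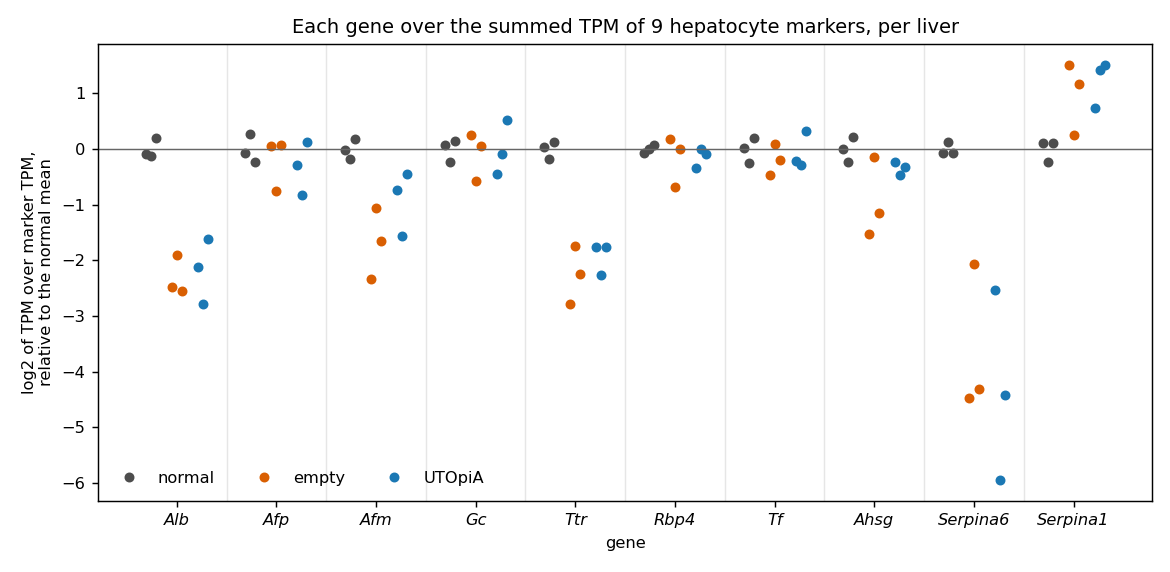
Points give, for each gene and liver, the TPM of the gene over the summed TPM of 9 hepatocyte markers, as log2 relative to the mean of the normal livers (vertical axis, 0 is the normal mean). Alb, Afm, Ttr and Serpina6 lie below the normal livers in all 6 ACLF livers, and Serpina1 lies above them in all 6. Afp, Gc, Rbp4 and Tf lie below the normal range in 3, 2, 3 and 2 ACLF livers and above it in 0, 2, 1 and 1.

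Markers of other cells of the liver did not all move one way. The summed TPM of 6 cholangiocyte markers went from 14.5 to 24.8 in normal livers to 304 to 610 in empty livers and 128 to 389 in UTOpiA livers, with 6 of 6 called higher in either group against normal (20.7% of all genes in empty and 18.2% in UTOpiA livers). For 6 stellate cell and fibroblast markers the sums were 93.6 to 108, 871 to 1052 and 439 to 1036, with 6 of 6 called. Neutrophil markers summed to 2.15 to 5.24, 177 to 1090 and 172 to 500, with 4 of 4 tested markers called and Cxcr2 and Mpo, a neutrophil receptor and granule enzyme, at 0 in some livers, as was the cholangiocyte factor Sox9. Of 5 macrophage markers 4 were called higher in empty livers (20.7% of all genes) and 3 in UTOpiA livers (18.2%). Of 3 endothelial markers 1 was called lower in either group (11.1% and 6.81% of all genes), with medians of -1.49 and -1.36 on the log2 scale. Markers near 0 in normal livers, among them those of neutrophils and most of those of cholangiocytes, passed the filter on low counts through the ACLF livers, so their calls followed from that filter and nothing is read from their count. More cells of these types and more of these mRNAs per cell cannot be told apart here, and the part of these marker levels in the lower carrier levels was not tested.

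The promoters of 8 members were present in the RefSeq table used here (rat build GRCr8, which is not the build of the positions above). Bases 250 to 31 before the annotated start of Alb, Afp and Gc are printed because these genes of one family fell by different amounts, and those of Serpina1 because its TPM was higher in ACLF. Capitals mark matches on either strand to the letters searched, which are spelled out with each factor after the sequences. They lie at chr14:17907010-17907229 (minus strand), chr14:17875676-17875895 (minus), chr14:18916005-18916224 (plus) and chr6:128653156-128653375 (minus).
Alb: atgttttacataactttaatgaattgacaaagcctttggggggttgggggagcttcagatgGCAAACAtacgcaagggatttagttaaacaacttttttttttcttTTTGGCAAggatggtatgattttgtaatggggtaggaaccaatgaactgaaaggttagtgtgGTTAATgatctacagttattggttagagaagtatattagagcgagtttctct
Afp: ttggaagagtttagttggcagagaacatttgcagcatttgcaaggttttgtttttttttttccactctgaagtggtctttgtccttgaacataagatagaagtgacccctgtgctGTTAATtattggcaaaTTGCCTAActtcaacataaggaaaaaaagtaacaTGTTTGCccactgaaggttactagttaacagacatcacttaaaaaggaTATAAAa
Gc: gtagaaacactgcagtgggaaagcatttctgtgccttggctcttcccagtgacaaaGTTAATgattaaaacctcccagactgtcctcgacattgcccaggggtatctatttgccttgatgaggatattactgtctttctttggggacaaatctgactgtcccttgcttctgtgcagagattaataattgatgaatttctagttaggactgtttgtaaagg
Serpina1: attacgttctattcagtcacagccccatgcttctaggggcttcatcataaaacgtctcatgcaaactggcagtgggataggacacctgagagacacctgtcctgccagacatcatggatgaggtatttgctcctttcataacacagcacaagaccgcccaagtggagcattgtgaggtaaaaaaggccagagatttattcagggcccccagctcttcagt

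HNF1, C/EBP and FOXA proteins are transcription factors on which the liver expression of albumin and related genes depends. The letters GTTAAT, part of the HNF1 site, were found in 3 of the 8 member promoters, those of Alb, Afp and Gc, and in 5.94% of all 33469 promoters over the same bases. The letters TTGCNNAA of C/EBP were in 5 of 8 (Alb, Afp, Rbp4, Tf and Ahsg; 8.31% of all). Those of FOXA, TGTTTGC, were in 4 of 8 (Alb, Afp, Tf and Ahsg; 3.64% of all). Alb and Afp, whose levels differ by over 3 orders of magnitude in these livers, each held all 3 kinds of match. The TATA box, TATAAA, was in 3 of 8 (11.1% of all), and HNF4 letters (CAAAGTCCA) in 0 of 8 (0.296% of all). The full HNF1 palindrome, which holds the shorter HNF1 letters, was in 0 of 8 and in 0.0% of all. No match says only that these letters are not in this window.

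Of 18 genes of factors that act at these promoters, 5 were called lower (11.1% of all genes) and 1 higher (20.7% of all genes) in empty livers, with a median log2 fold change of -0.66. Cebpa, the C/EBP factor of resting hepatocytes, was at 180, 195 and 240 TPM in normal livers, 81.0, 122 and 69.6 TPM in empty livers, and 162, 98.4 and 124 TPM in UTOpiA livers. It fell to below the normal range in every ACLF liver, with a log2 fold change of -1.69 in empty livers (edgeR adjusted p = 0.0023). Hnf4a, a nuclear receptor at the top of the hepatocyte programme, was at 166 to 179 TPM in normal livers, 84.1 to 124 TPM in empty livers and 106 to 138 TPM in UTOpiA livers, with a log2 fold change of -1.22 in empty livers (edgeR adjusted p = 0.0051). Hlf, of the PAR family of bZIP factors, fell by 1.81 on the log2 scale. The other 2 called lower, Foxa2 at -1.59 and Zbtb20 at -1.21, a repressor of Afp after birth, are named because the count is small. The 1 gene called higher was Cebpd, an early inflammatory C/EBP factor, at 3.16 to 4.54 TPM in normal livers, 73.0 to 224 TPM in empty livers and 25.8 to 47.6 TPM in UTOpiA livers. Cebpb did not pass the test (0.24, adjusted p = 0.579), with empty liver 2 at 196 TPM and all other livers at 67.1 to 104 TPM. With library totals in place of TMM, 3 factors were called higher (31.8% of all genes) and 3 lower (4.84%). With single livers left out in edgeR, 1 to 2 were called higher (2621 to 2981 of all genes) and 4 to 7 lower (1336 to 1776). The count higher was 2 without empty liver 1 and without empty liver 2.

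Export from the endoplasmic reticulum followed, since all members leave the cell by that route. Of 16 tested genes of this route 5 were called lower in empty livers (11.1% of all genes) and 0 higher (20.7%), with a median of -0.72. With library totals in place of TMM the count lower was 1, Sec23a (4.84% of all genes), and without empty liver 3 it was 3. Sec23a, of the COPII coat that buds cargo from the reticulum, was at 40.4 to 47.0 TPM in normal livers, 16.7 to 20.4 TPM in empty livers and 16.8 to 22.8 TPM in UTOpiA livers (log2 fold change -1.77 in empty livers, edgeR adjusted p = 7.39e-05). Lman1, the receptor that loads alpha-1 antitrypsin into these vesicles, was at -1.32, and its partner Mcfd2 at -1.03, with Sec24a at -1.07 and Mia2 at -1.08. The most abundant genes of the list, P4hb, Pdia3 and Tmed2, were not called (log2 fold changes of -0.63, 0.02 and -0.20, the last of which turned to 0.35 with library totals).

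Among 11 tested genes for uptake and recycling of these proteins, 3 were called higher (20.7% of all genes) and 2 lower (11.1%) in empty livers, shares near those of all genes. Fcgrt, the heavy chain of the receptor that returns albumin to blood, was at 119 to 139 TPM in normal livers, 209 to 223 TPM in empty livers and 173 to 241 TPM in UTOpiA livers, which after TMM scaling was a log2 fold change of 0.24 (adjusted p = 0.217). Its light chain B2m, shared with all class I molecules, was called higher at 1.17 (edgeR adjusted p = 0.0048). Cubn, cubilin, was at 0 to 0.0102 TPM in normal livers and 0.942 to 2.01 TPM in empty livers, and Vdr, the vitamin D receptor, was under 1 TPM throughout. Cubn and Vdr passed the filter on low counts only through the ACLF livers, so that their calls followed from the filter, and they were not tested where at least 10 counts in every library were asked for. The 2 called lower were Lrp2, megalin, at -1.25, and Asgr2, of the receptor for desialylated proteins, at -1.14, while its partner Asgr1 was at -0.05 and became 0.49 with library totals. With library totals neither Lrp2 (-0.72, under the 2-fold threshold) nor Asgr2 (-0.60, adjusted p = 0.112) was called, and Asgr2 also lost its call without normal liver 1 or 3 and without empty liver 1 or 3.

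Further carriers moved both ways. Of 19 tested genes of that list, which are those of plasma proteins apart from the intracellular Ttpa, 6 were called higher in empty livers (20.7% of all genes) and 4 lower (11.1%), with a median of 0.19. Hp, haptoglobin, the binder of free haemoglobin, was at 10036 to 11948 TPM in normal livers and 36385 to 46404 TPM in empty livers. It exceeded Alb in every ACLF liver. Hpx, hemopexin, rose by 2.09 on the log2 scale (edgeR adjusted p = 0.0033), Orm1, the acid glycoprotein that binds basic drugs, by 4.01 (adjusted p = 6.73e-04) and Lcn2, which binds bacterial iron carriers, by 7.62 (adjusted p = 4.17e-04). Igfals, which keeps insulin-like growth factors in plasma, was at 234 to 273 TPM in normal livers, 5.54, 78.6 and 8.23 TPM in empty livers, and 164, 39.0 and 103 TPM in UTOpiA livers, with a log2 fold change of -3.53 in empty livers (edgeR adjusted p = 0.0212). It became -5.73 without empty liver 2, and lost its call without empty liver 3 (-3.07, adjusted p = 0.0530) and with no filter on counts. The other 3 called lower were Ttpa, which transfers vitamin E within hepatocytes, at -2.66, Azgp1 at -1.33 and Selenop, the selenium carrier, at -1.25. The count lower was 2 without empty liver 3 and 2 with library totals (4.84% of all genes), where 9 were higher (31.8%).

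Of 11 tested positive acute phase genes, 6 were called higher (20.7% of all genes) and 0 lower (11.1%) in empty livers. The other 5 had log2 fold changes below 0, so the list moved both ways and its median of 1.53 does not stand for all its genes. The fibrinogen genes Fga, Fgb and Fgg were at 1.67, 1.67 and 1.53 on the log2 scale, with empty liver 2 the lowest of the empty livers in each, at 5021, 4746 and 7209 TPM against at least 12003, 13009 and 16702 TPM in the other empty livers. None of the 3 was called without normal liver 2, without normal liver 3 or without empty liver 1, which left 3 of the 6 calls. A2m was at 219, 6.20 and 186 TPM in empty livers, against 1.56 to 2.44 TPM in normal livers. Of 10 tested apolipoprotein genes 6 were called lower (11.1% of all genes) and 0 higher (20.7%), with a median of -1.33, near that of the 10 carriers. Apoa2 was at -3.22 and became -4.24 without empty liver 2. Apoc3 was at -1.61, Apoa1 at -1.04 and Apoe, the most abundant, at -0.82 (edgeR adjusted p = 0.0579). With library totals 4 were called lower (4.84% of all genes) and 1, Apoa5, higher (31.8%), with Apoa1 at -0.49 (adjusted p = 0.0858), and without empty liver 3 the count lower was 4 as well. In UTOpiA against empty, edgeR called 0 genes of these 6 lists, as it called 0.0% of all genes, and DESeq2 called 3, with Lcn2 at 2.61 (adjusted p = 0.0084) and Tfrc, the transferrin receptor, at 1.43 (adjusted p = 8.4e-05) higher (0.352% of all genes) and Cebpd at -1.72 (adjusted p = 0.0090) lower (0.511%).

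**Figure D5:**
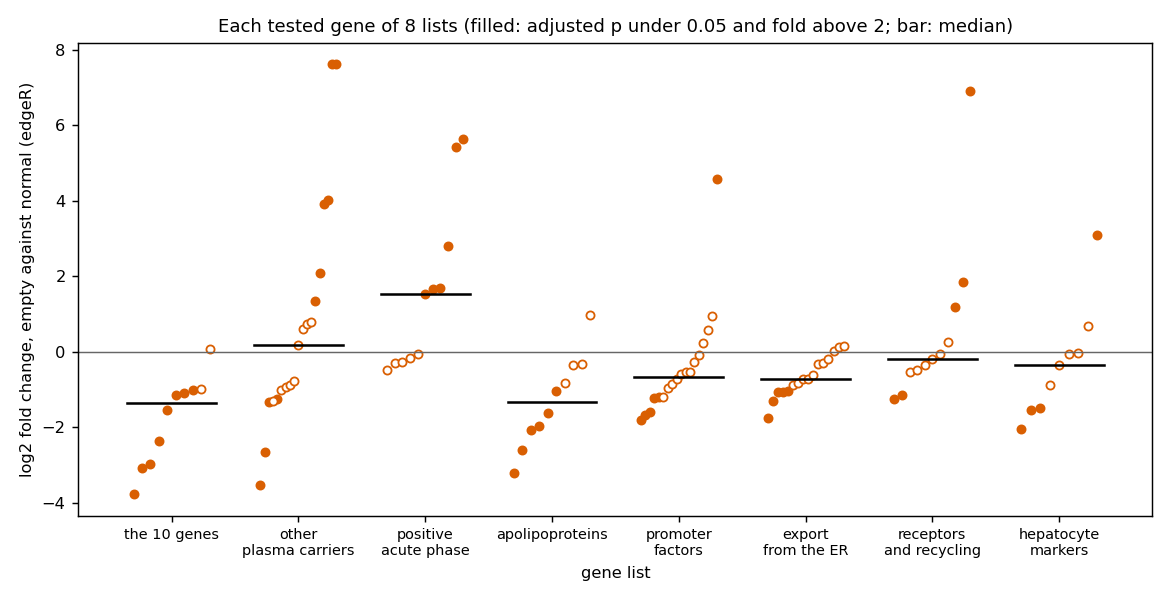
Each point is 1 tested gene of 1 of 8 lists, the 6 companion lists, the 10 carriers and the hepatocyte markers, placed by its edgeR log2 fold change in empty against normal livers (vertical axis), filled where called, with a bar at the median of the list. The 10 carriers and the apolipoproteins have medians of -1.35 and -1.33. The positive acute phase genes have a median of 1.53, with 6 of 11 above 0 and 5 below.

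The genes whose pattern over the 9 livers was most like that of Alb were sought among 7064 genes with a mean of at least 10 TPM, by Pearson's r of log2 CPM. They were Khk (ketohexokinase) and Bphl with r = 0.996 each, Pcyt2 with 0.996, Ces2g with 0.995 and Acy1 with 0.994. The points share libraries and fall into a normal and an ACLF cluster, so r mainly records that split and no p is given. Among the members, Ttr was the most like Alb (r = 0.987, place 41), and Serpina1 was the least (r = -0.29, place 4734). For Afp the 5 nearest genes were Mapre3, Tent4b, Dvl1, Cops6 and Phf10, with r from 0.981 to 0.959, and the member nearest to it was Rbp4 (r = 0.883, place 275).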

How the data were processed

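The authors trimmed the reads, aligned them with HISAT2 and counted them per gene with featureCounts. Their methods name Cutadapt 1.9.1, HISAT2 2.0.1 and featureCounts 2.6.0 with a mouse build, whereas the submitters' processing notes name Trimmomatic and the rat build rn6, and the library kits named also differ. The deposited counts are whole numbers without normalisation, and the deposited TPM were scaled by the authors to gene length and to 1000000 per library. Every value column belonged to 1 of the 9 libraries. The extract was polyA-selected RNA.

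Counts were fitted with edgeR 4.0.16 in R 4.3.3 (filterByExpr, TMM, 1 mean per group, robust quasi-likelihood, two-sided) over 14089 genes, with Benjamini-Hochberg adjustment and the thresholds of the study (adjusted p under 0.05, fold above 2). Ratios of TPM were tested with an exact permutation test. The labels call the livers of a group biological replicates. Counts were simulated for empty against normal with 200 of 14089 genes changed 4-fold and the other genes alike in all groups. In these, edgeR recovered 153 (76.5%) with 10 false calls, DESeq2 172 (86%) with 31 and limma 156 (78%) with 9. The simulation left out the shift in library composition of the real data, where 2916 genes were called higher and 1560 lower. Its rates are therefore not those of the tests above. The alternatives were DESeq2 1.42.0, limma 3.58.1 on log2(TPM + 1) or log2(TPM + 0.1), other normalisations and filters, the 6 libraries compared, the replicate number as a block and each library left out. DESeq2 with libraries left out, the share without Ahsg and the alternatives for the companion lists were added after the values were seen.

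The 10 genes, the companion and marker lists and the motifs were chosen with earlier results of these data known. Besides the members, the text names the 3 most abundant genes of each companion list and its largest called change in each direction, and genes behind counts of 5 or fewer, which were named after their values were seen. Of the listed genes, Rbpr2, Sar1a and Pecam1 were not matched, and Hrg, Mia3, Serpina3n, G6pc1 and Col1a2 were matched by Entrez gene ID. Asgr1 and Apob each stand in 2 lists. One hepatocyte marker of the list as first drawn up was removed after the values were seen, for a reason that did not depend on them, and it and the edited genes of the device cells are not reported here. Replicate numbers were not used as pairs, and the correlation of same-numbered deviations lay between -0.18 and 0.06. Differently numbered libraries were not compared in this way, so a shared day or batch was not tested. No 2 libraries of a group agreed within sampling noise (chi-square per degree of freedom of at least 17.6).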

Additional observations from a re-analysis of the deposited data

How the results depend on the processing

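With 3 livers per group and ACLF livers that differ widely from each other, calls near the thresholds are unstable. Between the ACLF groups no member passed the test. The largest log2 fold change there was 1.02 for Afm (SE 0.54, edgeR unadjusted p = 0.091). Over 29 alternatives per member (26 for Serpina6, to which DESeq2 gave no adjusted p without any 1 of the normal livers), Alb, Ttr and Afm passed the adjusted p in empty against normal in all, from -3.69 to -2.55, -3.69 to -2.45 and -3.16 to -1.82 on the log2 scale, and so did Rbp4, from -1.20 to -0.54. Alb and Ttr also passed it in all 29 in UTOpiA against normal. Afp passed in 22 in empty against normal, Serpina6 in 22, Ahsg in 19, Gc in 18, Tf in 7 and Serpina1 in 4, and no member but Serpina1 changed sign.

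The count of members lower in empty against normal, 8 as reported, was 4 with library totals, 5 in limma on log2(TPM + 1) and on log2(TPM + 0.1), both keeping genes above 1 TPM on average, and 4 in limma on log2(TPM + 1) without a filter. These settings move the median of all genes from 0.04 to 0.60, 0.44, 0.50 and 0.25. The number of all genes called lower also fell, from 1560 to 682, 690, 748 and 693. With single livers left out the count of members ran from 3 to 8, while all genes called lower ran from 1336 to 1830. In UTOpiA against normal the members ran from 2 to 5, the latter in DESeq2 without UTOpiA replicate 3, and all genes from 725 to 1251. The count higher in UTOpiA against empty ran from 0 to 3, the latter in DESeq2 without empty replicate 2, where 2.42% of all genes were higher. The all-gene counts in that comparison were 51 higher and 74 lower with DESeq2, against 0 and 0 with edgeR.

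With the replicate block, a pairing that the labels do not state, 6 members were lower in empty against normal (1532 of all genes). Ahsg and Gc were lost (edgeR adjusted p = 0.063 each). The count lower was 3 in UTOpiA against normal (897 of all genes) and 0 in UTOpiA against empty (0 of all genes).

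Serpina1 in empty against normal turned to -0.16 without empty replicate 1 and -0.02 without normal replicate 2 with edgeR, and to -0.14 and -0.0098 with DESeq2, within a range of up to 0.18 without single livers in edgeR (without empty replicate 2). Serpina6 in UTOpiA against empty ran from -1.89 to 1.57 in edgeR and down to -1.90 in DESeq2 with single livers left out, with positive values of 1.57, 0.30 and 0.09 without empty replicate 2, UTOpiA replicate 2 and UTOpiA replicate 3 in edgeR and 1.54, 0.27 and 0.070 in DESeq2. Of the companion genes, Asgr1 turned to 0.49 with library totals, 0.051 with at least 10 counts in every library, 0.46 in each of the 3 limma settings, and, with single livers left out, to 0.058 (edgeR) and 0.011, 0.0020 and 0.069 (DESeq2). Tmed2 turned to 0.35 with library totals and 0.32 in the 3 limma settings. Cebpb turned to -0.24 and -0.21, and Pdia3 to -0.013, -0.014 and -0.068 in edgeR (its highest value there being 0.087) and to -0.0059, -0.0095 and -0.047 in DESeq2, with single livers left out. The cause was not tested.

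The share of the 10 genes was 21.5% of counts in normal livers and 9.37% in the UTOpiA group, and 21.5% of TPM in normal livers without mitochondrial genes, each above the share of all TPM by more than 1 SD. Without single livers the share ran from 18.3% to 19.2% in normal livers, 4.98% to 7.02% in the empty group and 6.86% to 8.37% in the UTOpiA group.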

Other observations

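Thyroxine has another carrier in plasma, the thyroxine binding globulin encoded by Serpina7, and its mRNA moved opposite to that of Ttr. Serpina7 was named after its values were seen. It was at 7.18, 2.21 and 4.10 TPM in normal livers, 122.7, 40.9 and 131 TPM in the empty group, and 67.5, 96.2 and 35.3 TPM in the UTOpiA group, so that all ACLF livers were above all normal livers. Its log2 fold change was 3.92 in the empty group (SE 0.56, edgeR adjusted p = 0.000778), from 3.58 to 4.497 over the alternatives, and its TPM stayed below that of Ttr in every liver.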
